A study of Homo sapiens with 18 samples.

Results

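The regions described here are narrow gaps of 1 to 1000 bp between neighbouring, non-overlapping protein-coding genes on chromosomes 1 to 22 and X, with a summit of RNA polymerase II (Pol II) in the gap or within 500 bp of it in both numbered Control libraries. Of 2077 such gaps, 1257 (60.5%) met this rule. They held 2436 of 19974 protein-coding genes (12.2%), and 78 genes lay beside 2 of these gaps. The gaps were thus chosen by the presence of Pol II Control summits, so Pol II Control values are given as a description only.

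The study used chromatin immunoprecipitation followed by sequencing (ChIP-seq) in HCT116, a human colon cancer cell line. All libraries came from cells in which INTS11, the RNA-cleaving subunit of the Integrator complex, carries an auxin-inducible degron (INTS11-AID). IAA is auxin, which directs a degron-tagged protein to degradation. Each antibody had 2 IAA and 2 Control libraries with replicate numbers, against Pol II, against the tyrosine 1 phosphate of its C-terminal repeats (Tyr1P) and against their serine 2 phosphate (Ser2P). A further 4 Pol II libraries carry no replicate number and are labelled IAA+EGF, EGF, IAA and Control, and 2 input libraries were also sequenced. For the unnumbered libraries labelled IAA and EGF, the labels and the names of the deposited lists disagree, so each is called here by its label. Per the labels, 1 protocol text covers every sample without naming the libraries that each treatment went to. It names a serum-free period (14 h), IAA at 500 µM (1 h), EGF at 100 ng/µl (30 min) and interferon beta at 2000 U (1 h). Nothing in the labels says that replicates were separate cultures, so p-values measure the spread between these libraries, which may be technical.

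A divergent promoter lies between genes that start back to back and run away from each other. Pol II initiates at such promoters in both directions from a shared nucleosome-depleted stretch, and pauses just inside each gene. Integrator binds paused Pol II, and its endonuclease cleaves the short nascent RNA, which ends transcription early. Tyr1P is a mark found near starts in human cells, and Ser2P accumulates on Pol II that elongates through gene bodies.

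A close gap is not always a shared promoter. Strand was known for both genes at 958 of the 1257 gaps, from a RefSeq promoter table. Divergent pairs made up 703 of these (73.4%), tandem pairs, in which both genes run the same way, 233, and convergent pairs, in which the genes end toward each other, 22. Of all gaps by orientation, 91.3% of 770 divergent, 60.2% of 387 tandem and 6.4% of 344 convergent gaps met the rule. The median gap was 174 bp at divergent and 504 bp at tandem pairs. Results are therefore given by orientation, and "shared promoter" is used for divergent pairs only. A noncoding gene lay within 75 of the 1257 gaps. The regions set beside them are 6002 single promoters, ends of protein-coding genes with no other protein-coding gene within 5 kb and the same Pol II Control summits. Of these, 4860 had a known strand, and 26.8% of the 6002 had a long noncoding RNA gene within 1 kb, so they are single in the protein-coding sense only.

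The pairs follow with the plus strand of the whole gap, read from the RefSeq promoter table on GRCh38.p14. The left gene is on the minus strand and starts just before the first base, and the right gene starts just after the last base. Capitals mark matches, on either strand, to the letters CCGGAAG (bound by ETS factors), GCGC and TGCGC with 1 base between them (NRF1), CCAAT (NF-Y), GGGCGG (the GC box bound by SP factors), AAGATGGC (YY1), TGACGTCA (the cyclic AMP response element), TATAAA (the TATA box) and CACGTG (an E box). None of these words contains another. The first set shows shared promoters with strong Pol II peaks. They lie at chr17:7484250-7484365, chr17:78187205-78187361 and chr2:197500275-197500378.
ZBTB4/POLR2A: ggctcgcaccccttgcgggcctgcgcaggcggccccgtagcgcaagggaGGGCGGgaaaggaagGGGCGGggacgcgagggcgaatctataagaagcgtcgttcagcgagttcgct
TK1/AFMID: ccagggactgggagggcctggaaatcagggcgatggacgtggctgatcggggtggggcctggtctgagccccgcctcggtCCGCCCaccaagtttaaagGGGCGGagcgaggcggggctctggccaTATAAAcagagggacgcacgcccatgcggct
HSPD1/HSPE1: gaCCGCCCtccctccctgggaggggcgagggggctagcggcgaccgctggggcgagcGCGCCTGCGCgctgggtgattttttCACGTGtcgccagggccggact

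The second set comes from pairs at which the Pol II summit divided or left the window with IAA, or differed in side between libraries, at chr19:38930764-38930943, chr21:33542894-33543037 and chr6:159789603-159789811.
SARS2/MRPS12: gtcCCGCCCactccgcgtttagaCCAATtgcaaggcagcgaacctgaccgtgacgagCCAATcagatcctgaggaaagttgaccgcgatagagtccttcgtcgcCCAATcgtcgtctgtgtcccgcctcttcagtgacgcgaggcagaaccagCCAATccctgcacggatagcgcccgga
GART/SON: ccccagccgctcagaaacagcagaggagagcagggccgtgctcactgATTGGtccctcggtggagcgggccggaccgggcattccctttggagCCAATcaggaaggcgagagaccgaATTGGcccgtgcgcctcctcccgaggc
TCP1/MRPL18: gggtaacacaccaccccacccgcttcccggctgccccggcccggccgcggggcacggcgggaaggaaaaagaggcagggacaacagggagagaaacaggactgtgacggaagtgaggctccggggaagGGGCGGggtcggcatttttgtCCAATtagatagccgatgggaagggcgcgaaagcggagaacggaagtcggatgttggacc

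The third set comes from a pair whose Tyr1P summits left the window with IAA and a pair that had Ser2P summits with IAA only, at chr11:61362284-61362373 and chr9:127451407-127451485.
CYB561A3/TMEM138: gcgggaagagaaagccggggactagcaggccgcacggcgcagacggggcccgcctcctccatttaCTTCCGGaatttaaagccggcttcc
RPL12/LRSAM1: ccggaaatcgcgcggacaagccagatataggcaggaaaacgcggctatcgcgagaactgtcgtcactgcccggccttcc

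These gaps are rich in G and C, from 60.0% between SARS2 and MRPS12 to 74.0% between HSPD1 and HSPE1. The gap between TK1 and AFMID holds a TATA box and GC boxes, that between SARS2 and MRPS12 holds CCAAT on the same strand more than once, and that between CYB561A3 and TMEM138 holds an ETS word. No listed word was found between RPL12 and LRSAM1, which says only that these letters are not in that window. Over windows from 250 bases before to 50 after the right gene's start (the left gene's where the right had none), ETS words were present in 30.0% of 699 divergent pairs, against 18.6% of 4513 single promoters and 12.8% of 22132 promoters of protein-coding genes. CCAAT was present in 44.1% of divergent windows, 37.0% of single ones and 34.6% of all. NRF1 words stood at 15.9%, 13.6% and 7.41%, and YY1 words at 8.44%, 5.69% and 3.54% in the same order. The TATA box ran the other way, with 3.43% of divergent, 5.10% of single and 9.46% of all promoters. GC boxes were in 74.2%, 77.3% and 56.3%, and E boxes in 12.0%, 10.2% and 8.34%. Median G and C content was 65% at divergent pairs, 67.0% at single promoters and 62.3% over all. A match is a description of letters and not a bound site, and no test was made.

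The depth of the 16 immunoprecipitated libraries, estimated from the peak lists, ranged from 2.95 to 13.6 fragments per kb of genome, and 15270 to 99001 peaks per list were used. Promoters of the epithelial genes EPCAM, KRT8, KRT18 and CDH1 carried Pol II summits in both Control libraries, and those of VIL1, also epithelial, and of the blood gene PTPRC in neither. HBB had a summit in 1 of them. An input summit lay at 1 of the 1257 gaps.

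Shared promoters had Pol II summits more often than single promoters did in the numbered IAA libraries, and convergent gaps least often. With IAA, a Pol II summit was found at 93.6% and 96.6% of the 703 divergent pairs in replicates 1 and 2, against 82.6% and 90.2% of the 4860 single promoters of known strand. Differences by orientation in share, width, rank and summit place are taken against these 4860, and those over all 1257 gaps against the 6002. Tandem pairs had 82.0% and 91.8%, and convergent pairs 40.9% and 45.5%. Over the 6 Pol II libraries that the rule did not use, the share at divergent pairs exceeded that at single promoters by 3.79 ± 4.08 percentage points (SD, n = 6). The difference was above 0 in 6 of 6 libraries, and the two-sided exact sign-flip permutation test over libraries gave p = 0.031, the smallest it can give. Over all 1257 gaps it was 2.08 ± 2.44 points (SD, n = 6; exact permutation p = 0.031), and after Benjamini-Hochberg adjustment over 30 tests p was 0.3125. The tests by orientation stand outside that family and are not adjusted. Tandem pairs differed from single promoters by 0.172 ± 1.01 points (exact permutation p = 0.69, n = 6).

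The window at a pair is wider than at a single promoter by the length of the gap. At a divergent pair it also holds the starts of both genes, and a summit at either counts. This also holds for the windows of equal length below. Where pairs were re-chosen and read in a window of equal length, 500 bp either side of the middle of the gap, the difference over all gaps was 0.720 points (exact permutation p = 0.53, n = 6). For divergent pairs re-chosen in the same way it was 3.11 points (exact permutation p = 0.031, n = 6). With the 1257 gaps kept as chosen and read in the window around the middle it was -2.92 points (exact permutation p = 0.0625, n = 6), where summits far from the middle of wide gaps fall outside. Regions were also divided into 3 classes by the mean Control percentile of −log10 q (column 9 of the deposited lists, as the percentile of a peak within its own list), with limits at 65.8 and 83.6. Over all gaps the share difference was 3.77 points in the class of weakest Control peaks (exact permutation p = 0.031, n = 6). It was 1.17 points in the middle class (exact permutation p = 0.125, n = 6) and 0.239 points in the highest (exact permutation p = 0.75, n = 6), where it did not pass. At divergent pairs of the lowest class, a Pol II summit was found at 84.4% and 91.1% of 180 pairs in IAA replicates 1 and 2, against 63.0% and 78.0% of 1634 single promoters. In the highest class it was found at 98.0% and 98.4% of 253 divergent pairs, against 95.6% and 97.8% of 1610 single promoters. With any peak that shared 1 bp with the window counted in place of a summit, the difference over all gaps was 1.44 points (exact permutation p = 0.1875, n = 6).

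Tyr1P summits were found at nearly all shared promoters. Divergent pairs had them at 98.7% and 98.6% with IAA and at 99.4% and 99.7% in Control, against 96.7% in both IAA and 98.4% and 98.6% in Control libraries at single promoters. The difference was 1.52 ± 0.487 points (SD, n = 4), above 0 in 4 of 4 libraries, with an exact permutation p of 0.125, the smallest that 4 libraries allow. None of the 1257 gaps lacked a Tyr1P summit in all 4 libraries. Of the 1257, Tyr1P summits were at 97.4% and 96.7% with IAA and at 99.0% and 99.2% in Control, a difference of -2.03 points (exact permutation p = 0.33, n = 4, the smallest that 2 libraries against 2 allow).

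Ser2P summits were more frequent with IAA at divergent and convergent pairs, with no overlap between the libraries of the groups, while at tandem pairs the groups overlapped. Over the 1257 gaps they were found at 97.1% in both IAA libraries, against 94.2% and 72.6% in Control libraries. At divergent pairs the shares were 97.2% and 96.9% with IAA, against 93.2% and 66.4% in Control. Tandem pairs had 97.4% and 97.0%, against 98.3% and 88.0%. Convergent pairs, only 22, had summits at 20 and 18 with IAA, against 17 in each Control library, so few pairs set that difference. The 6002 single promoters had 94.6% in both IAA libraries, against 92.1% and 66.6% in Control. Estimated depth was 9.32 and 10.5 fragments per kb in the IAA libraries and 13.6 and 3.29 in the Control libraries, and the shallow Control replicate 2 had the lowest share at every kind of gap except convergent ones, where both Control libraries had 77.3%. The part of depth in this result was not tested. The IAA minus Control difference of 13.7 points over all gaps had an exact permutation p of 0.33 (n = 4). It was 2.86 points without Control replicate 2 and 24.5 points without Control replicate 1. The change at pairs did not differ detectably from that at single promoters (-1.55 points, exact permutation p = 1, n = 4).

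**Figure D1:**
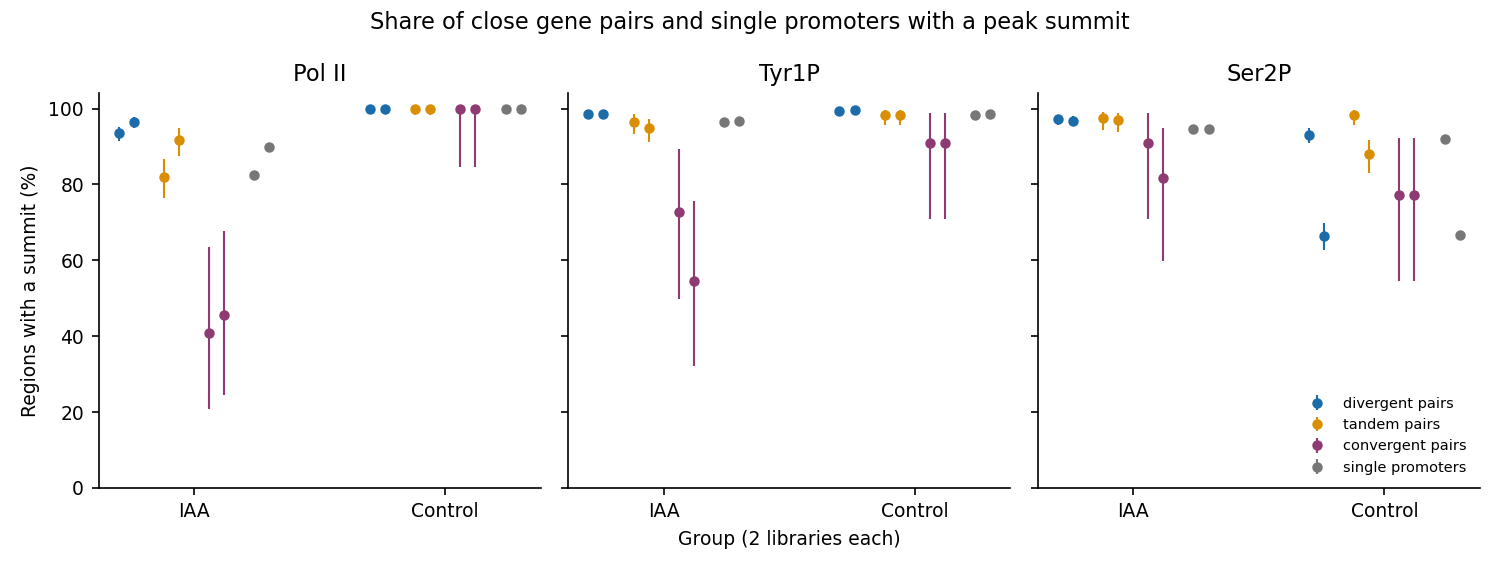
Share of regions with a peak summit (%) for divergent, tandem and convergent gene pairs and the 6002 single promoters, in IAA (left) and Control (right) libraries of each antibody. Points are single libraries and bars are exact binomial 95% intervals of counting error. With IAA, Pol II summits were at 93.6% and 96.6% of divergent pairs and at 40.9% and 45.5% of convergent pairs. Pol II Control is 100% by the rule.

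Pol II and Tyr1P peaks were wider at divergent and tandem pairs than at single promoters, which did not hold at convergent pairs. The median Pol II peak at divergent pairs was 427 and 587 bp wide in IAA replicates 1 and 2, against 407 and 502 bp at single promoters. For Tyr1P it was 804 and 837 bp with IAA and 795 and 818 bp in Control at divergent pairs, against 713 and 731.5 bp with IAA and 759 and 767 bp in Control at single promoters. In Pol II libraries outside the rule the median width at all 1257 gaps exceeded that at single promoters by 48.1 ± 16.5 bp (SD, n = 6; 6 of 6 libraries; exact permutation p = 0.031, adjusted p = 0.3125). Tyr1P peaks were wider by 70.4 ± 23.4 bp and Ser2P peaks by 51.1 ± 16.4 bp, each in 4 of 4 libraries (exact permutation p = 0.125). For Pol II the excess was alike at divergent (51.3 ± 23.8 bp) and tandem pairs (52.4 ± 22.2 bp). For Ser2P it was 6 ± 11.05 bp at divergent pairs (exact permutation p = 0.375, n = 4) and 186 ± 90.8 bp at tandem pairs (exact permutation p = 0.125, n = 4). At convergent pairs, with 9 to 20 peaks per library, Pol II peaks were narrower than at single promoters in 4 of 6 libraries, with differences of -229 to 32.5 bp. Tyr1P peaks there differed by -33 and -120.5 bp with IAA, against 348.5 and 349 bp in Control, and Ser2P peaks by -59 and -31 bp with IAA, against 983 and 773 bp in Control.

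The rank of peaks within their lists separated the orientations. A percentile belongs to its own list, and lists differ in length (for Ser2P, 99001 and 88503 peaks with IAA and 37013 and 15270 in Control). Percentiles are therefore compared between kinds of region within a library, and a difference between IAA and Control percentiles is not read as a change. In IAA replicates 1 and 2 the median Pol II percentile was 77.8 and 82.0 at divergent pairs and 65.1 and 69.8 at tandem pairs, against 68.7 and 73.6 at single promoters. At divergent pairs the median percentile of Pol II peaks lay above that of single promoters by 5.00 ± 2.94 (6 of 6 libraries; exact permutation p = 0.031), and at tandem pairs it lay below by a mean difference of -3.84 ± 0.986 (0 of 6 libraries above; exact permutation p = 0.031). Tyr1P went the same way, with 3.05 ± 2.19 at divergent and -2.32 ± 0.746 at tandem pairs. Ser2P went the other way. Its peaks at tandem gaps ranked 15.9 ± 14.7 above single promoters (4 of 4 libraries), while those at divergent pairs differed by -0.533 ± 1.12 (2 of 4 above, exact permutation p = 0.5, n = 4). At tandem pairs the median Ser2P percentile was 97.9 and 97.8 with IAA and 95.5 and 94.5 in Control, against 92.8 and 92.2 with IAA and 79.3 and 58.0 in Control at single promoters. The tandem excess was 36.5 in Ser2P Control replicate 2, the shallowest Ser2P library, and at least 5.14 in the others. Ser2P peaks at the 22 convergent pairs, where both genes end, had a median width of 754 and 816 bp with IAA, against 1559 and 1211 bp in Control. At 36.4% and 27.3% of these pairs there were 2 or more Ser2P summits with IAA, against 4.55% and 9.09% in Control. Over all 1257 gaps the shares were 9.94% and 8.04% with IAA, against 7.88% and 2.63% in Control. At the 6002 single promoters they were 1.28% and 0.77% with IAA, against 2.38% and 0.7% in Control, where the groups overlapped. At the convergent pairs the groups did not overlap in either measure, and no test was made. With only 22 such pairs, few pairs set these differences.

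**Figure D2:**
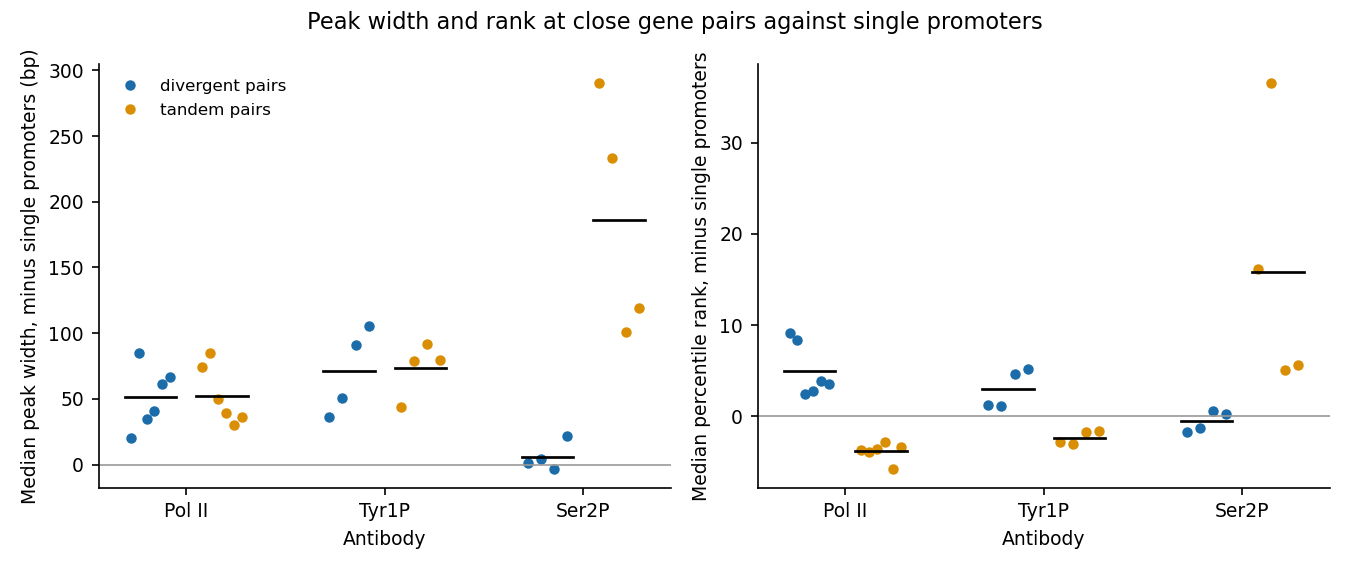
Median peak width (left, bp) and median percentile rank of −log10 q (right) at divergent and tandem pairs minus the same at single promoters, with 1 point per library outside the rule (6 Pol II, 4 Tyr1P, 4 Ser2P) and the mean as a line. Pol II ranks at divergent pairs lie 5.00 above single promoters on average and those at tandem pairs -3.84; Ser2P ranks are 15.9 above at tandem pairs.

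Pol II summits at shared promoters mostly lay inside a gene, and the share in the gap itself rose with gap width. The summit of the strongest peak fell in the gap at 4.27% and 3.98% of divergent pairs in Control replicates 1 and 2. It was 68 and 69 bp inside the nearer gene at the median (summits in the gap counted as negative), where promoter-proximal pausing is known to take place. The divergent share in the gap was 2.00% and 2.24% at gaps of 1 to 200 bp. It was 5.49% and 4.71% at 201 to 500 bp, and 17.0% and 14.9% at 501 to 1000 bp. At single promoters 27.8% and 26.7% of Control summits lay before the start. That stretch is 500 bp at every single promoter, while the median divergent gap is 174 bp. A summit beyond a divergent gap counts as inside a gene, so these shares are not like measures. Tandem gaps are wider, with a median of 504 bp against 174 bp. At tandem pairs 30.5% and 28.3% of Control summits lay in the gap. There, 86.7% of summits in both libraries were nearer the start of the downstream gene than the end of the upstream gene. Ser2P summits at tandem pairs lay in the gap at 42.7% and 39.4% with IAA, against 45.4% and 50.7% in Control. They too were mostly nearer the start of the downstream gene, at 87.2% and 88.1% with IAA, against 88.2% and 85.4% in Control.

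With IAA the summits lay deeper in the gene. For Pol II the median distance inside was 110 and 120 bp in IAA replicates 1 and 2, against 68 and 69 bp in Control. For Tyr1P it was 102 and 106 bp with IAA, against 62 bp in both Control libraries, a difference of 42.0 bp (exact permutation p = 0.33, the smallest possible, n = 4). For Ser2P it was 74 and 77 bp, against 55 and 51 bp (exact permutation p = 0.33). The groups did not overlap for any of the 3 antibodies. Single promoters showed shifts of the same size. Their Pol II summits lay at 94 and 101 bp with IAA, against 50 and 52 bp in Control, so the IAA difference at divergent pairs minus that at single promoters was 0 bp for Pol II, 4 bp for Tyr1P and 2 bp for Ser2P (exact permutation p = 0.33 for both marks).

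Fewer shared promoters were covered from end to end by 1 Pol II peak with IAA. In IAA replicates 1 and 2, 1 Pol II peak covered the whole gap at 38.3% and 49.5% of divergent pairs with a summit, against 64.7% and 67.4% in Control, a difference of -22.2 points. A gap counts as not covered whether or not it has a second peak. For Tyr1P the shares were 73.2% and 74.3%, against 88.0% and 86.7%, a difference of -13.6 points (exact permutation p = 0.33, n = 4). For Ser2P they ran the opposite way, with 77.6% and 80.9% with IAA, against 67.2% and 60.0% in Control (difference 15.7 points, exact permutation p = 0.33, n = 4). The differences were smaller between the unnumbered Pol II libraries. There, 77.5% of pairs were covered by 1 peak in the library labelled IAA+EGF, 78.6% in that labelled EGF, 83.0% in that labelled IAA and 83.9% in that labelled Control. By the names of the deposited lists, in which those labelled IAA and EGF change places, both lists with IAA in the name (77.5% and 78.6%) lay below both without it (83.0% and 83.9%). These 4 libraries were deeper (6.44 to 8.06 fragments per kb) than the numbered Pol II libraries, which had 5.05 and 6.06 with IAA and 2.95 and 5.74 in Control. Whether depth or treatment set these shares was not tested.

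More pairs had 2 or more summits with IAA. For Pol II these were 25.5% and 24.5% of 703 divergent pairs, against 17.6% and 20.2% in Control, a difference of 6.05 points. Single promoters also had more with IAA, at 8.31% and 9.49%, against 6.07% and 6.93% in Control. For Tyr1P they were 13.8% and 13.2%, against 6.4% and 6.83%, and the difference of 6.90 points exceeded that at single promoters by 3.62 points (exact permutation p = 0.33 for both, n = 4). Ser2P groups overlapped, with 8.39% and 7.11%, against 7.68% and 2.42%. The Tyr1P difference was largest at middle gap widths. At the 255 divergent gaps of 201 to 500 bp, Tyr1P had 2 or more summits at 23.5% and 20.8% with IAA, against 7.45% and 7.84% in Control. At the 47 gaps of 501 to 1000 bp the shares were 36.2% and 34.0% with IAA, against 38.3% and 44.7% in Control, which is the opposite order. Pol II at 201 to 500 bp stood at 40.4% and 41.6% with IAA, against 27.5% and 32.5% in Control. At 501 to 1000 bp Pol II also had the opposite order, with 48.9% and 46.8% with IAA, against 51.1% and 55.3% in Control.

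**Figure D3:**
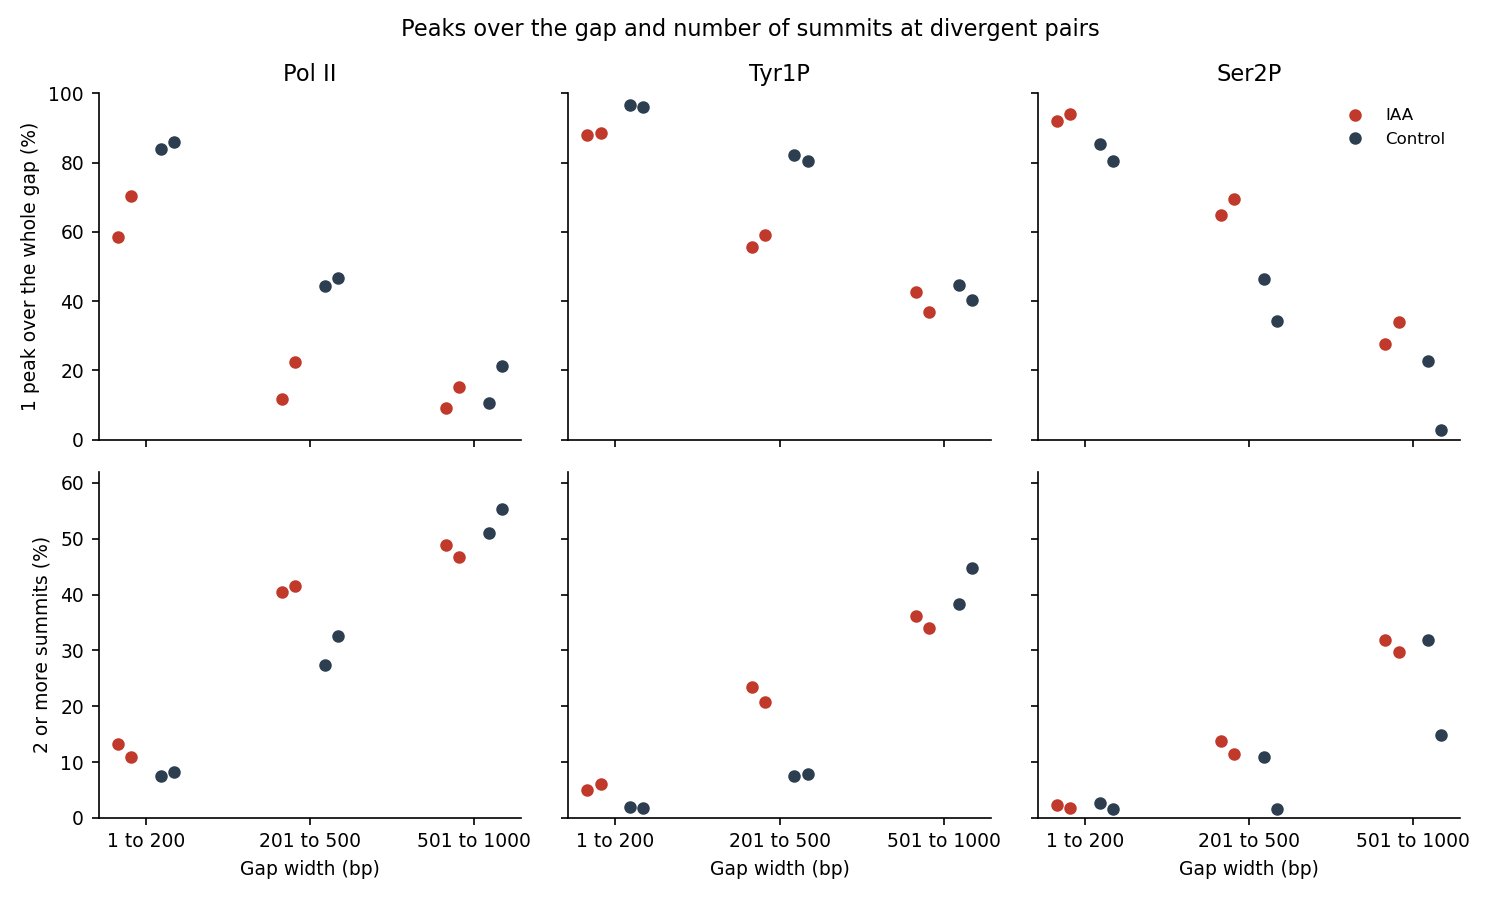
Share of divergent pairs whose strongest peak covers the whole gap (upper row, %, of pairs with a summit) and share with 2 or more summits (lower row, % of all pairs) by gap width (bp), with 1 point per library and IAA left of Control. At 201 to 500 bp, Tyr1P peaks covered the gap at 55.7% and 59.2% of pairs with IAA and at 82.4% and 80.4% in Control, while Ser2P peaks did so at 64.8% and 69.6% with IAA and at 46.4% and 34.2% in Control.

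The gene beside the strongest Pol II summit also differed between the groups. Between an IAA and a Control library it lay on the other side of the middle of the gap at 25.5% to 26.9% of divergent pairs, against 11.3% between the IAA libraries and 12.2% between the Control libraries. For Tyr1P the shares were 18.5% to 22.9% between groups, against 11.9% between IAA and 9.60% between Control libraries (between minus within 9.98 points, exact permutation p = 0.33, n = 4). For Ser2P they were 22.7% to 24.7% between groups, against 10.8% between IAA and 23.7% between Control libraries, so the groups could not be told apart from the spread of the Control replicates.

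Single pairs show these forms. ZBTB4/POLR2A had the highest Pol II Control rank of all 1257 gaps. POLR2A encodes the largest Pol II subunit and ZBTB4 a zinc finger protein that binds methylated DNA. The strongest summit lay on the POLR2A side in all 12 numbered libraries. The Pol II summit lay 209 and 127 bp inside POLR2A in IAA replicates 1 and 2, against 52 and 65 bp in Control. Ser2P summits lay 313 and 322 bp inside with IAA, against 144 and 73 bp in Control. The Pol II fold enrichment in the deposited lists was 12.1 and 10.7 with IAA and 19.0 and 17.4 in Control, values that belong to each list on its own.

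TK1/AFMID pairs thymidine kinase, an S phase enzyme, with an enzyme of tryptophan breakdown. Its gap of 157 bp, with a TATA box in the sequence printed for it, had 2 Pol II summits in both IAA libraries and 1 in both Control libraries. The stronger summit lay 187 and 174 bp inside AFMID with IAA, against 61 and 86 bp in Control. Ser2P moved to the TK1 side, where its summits were 189 and 209 bp inside TK1 with IAA, against 72 and 112 bp inside AFMID in Control.

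ASH1L/MSTO1, a histone methyltransferase gene and a gene of mitochondrial distribution 43 bp apart, had its Pol II summit 64 and 65 bp inside MSTO1 with IAA, against 54 and 45 bp in Control. The peak had a width of 425 and 543 bp with IAA, against 851 and 882 bp in Control. NEK8/TRAF4 is a tandem pair, a ciliary kinase gene ending 555 bp before the gene of an adaptor of the TRAF family. Its Pol II percentile was 80.6 and 71.9 with IAA, against 99.0 and 99.4 in Control, while Ser2P stood at 98.3 and 99.0, against 97.8 and 95.9. IMPDH2/QRICH1, MTERF3/PTDSS1 and TATDN1/NDUFB9 were also among the 8 highest, and each had summits of all 3 antibodies in all 12 numbered libraries.

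Of 17 well-known bidirectional pairs listed, 10 met the rule, 2 had a gap but no Pol II Control summit in both libraries (SIRT3/PSMD13 and COL4A1/COL4A2), and 5 had no gap of 1 to 1000 bp in this annotation. HSPD1/HSPE1, the mitochondrial chaperonin and its co-chaperonin, had a Pol II summit 492 and 469 bp inside HSPD1 in Control, near the edge of the window. With IAA the strongest Pol II summit was 65 and 105 bp inside HSPE1, on the other side of the gap. Its Tyr1P and Ser2P summits stayed on the HSPD1 side in all 8 libraries, 471 to 494 bp inside.

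SARS2/MRPS12, a mitochondrial seryl-tRNA synthetase and a mitochondrial ribosomal protein, had 2 Pol II summits in both IAA libraries and 1 in both Control libraries, with the stronger 94 and 120 bp inside MRPS12 with IAA, against 71 and 99 bp in Control. TAP1/PSMB9, a peptide transporter and an immunoproteasome subunit of antigen presentation, likewise had 2 Pol II summits in both IAA libraries and 1 in both Control libraries. Its Pol II percentile was 37.9 and 61.6 with IAA, against 66.5 and 84.1 in Control. GART/SON joins a purine synthesis enzyme with a splicing cofactor. Pol II lay 176 and 143 bp inside GART with IAA, and in Control 80 bp inside SON in replicate 1 and 98 bp inside GART in replicate 2, so the side differed between the Control replicates themselves.

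PRKDC/MCM4, a DNA repair kinase and a subunit of the replicative helicase 804 bp apart, had 1 Pol II summit in each IAA library and 2 in each Control library, with the stronger 82 and 81 bp inside PRKDC with IAA, against 49 and 59 bp in Control. SURF1/SURF2, with a cytochrome oxidase assembly factor on the left, had Pol II 125 and 120 bp inside SURF1 with IAA. In Control its summit was 7 bp inside SURF2 in replicate 1 and 41 bp inside SURF1 in replicate 2. NPAT/ATM, a coactivator of histone genes and a DNA damage kinase, had 2 Pol II summits in all 4 numbered libraries, and its stronger summit differed in side between the IAA replicates. COL4A6/COL4A5, basement membrane collagens, had the weakest peaks of the 10, with a Pol II percentile of 23.1 and 37.1 with IAA, against 12.3 and 33.1 in Control, and no Ser2P summit in any of the 4 libraries.

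A gap was called lost with a summit in both Control libraries and neither IAA library, and gained in the reverse case. For Pol II, 67 of 1257 gaps (5.33%) were lost, against 7.44% of all 7259 gaps and single promoters. The share was 2.56% at divergent, 7.73% at tandem and 50% at convergent pairs, and 7.88% at the 6002 single promoters. The rule required the Control summits, so these shares are a description. A summit that leaves the window also counts as lost. At 12 of the 67 a Pol II peak still reached the window in an IAA library, at 19 a summit lay 501 to 1000 bp out, and 47 had neither.

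Without IAA replicate 2 the count was 140. Of the 8 lost pairs of highest Control rank, 5 had a Pol II peak in the window or a summit 501 to 1000 bp out in an IAA library. COPZ2/NFE2L1, a coatomer subunit and a transcription factor of proteasome genes, had a Control summit 472 and 455 bp inside NFE2L1, at the edge of the window, and an IAA summit 501 to 1000 bp out. TCP1/MRPL18, a subunit of the cytosolic chaperonin and a mitochondrial ribosomal protein, had a Control summit 47 and 38 bp inside TCP1. With IAA a Pol II peak still reached the gap, with its summit 501 to 1000 bp out, and Tyr1P summits stayed 29 and 35 bp inside TCP1, against 27 and 38 bp in Control. H2AC20/H2AC21 is a convergent pair of histone genes of under 1 kb, where summits near the gene ends are also near the starts, and with IAA a Pol II peak still reached the gap. Of the 8 lost pairs named, NUP43/PCMT1 (a nucleoporin and a protein repair enzyme), UFSP1/ACHE (a protease of the UFM1 pathway and acetylcholinesterase) and PCSK4/REEP6 had no Pol II peak in the window and no summit within 1000 bp with IAA. C1orf232/ZNF593OS and SLC35B2/NFKBIE had summits 501 to 1000 bp out. At PCSK4/REEP6 the Control Pol II summits had a stack of 35 and 51 fragments, and Tyr1P summits were found in all 4 libraries, with 57 and 48 stacked fragments with IAA and 121 and 134 in Control.

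For Tyr1P, 20 of 1257 gaps (1.59%) were lost, against 1.39% over all regions, and 1 was gained, against 0.413%. These shares are near those over all regions. Without IAA replicate 1 the lost count was 33, and without any 1 of the 4 libraries the gained count was 3 or 4. At 12 of the 20 a Tyr1P peak still reached the window in an IAA library. Among the 6 lost pairs of highest rank were ZCWPW1/MEPCE, CYB561A3/TMEM138, MMS19/UBTD1, TTL/POLR1B and LTC4S/MGAT4B, and each of these had a Tyr1P peak that reached the gap with its summit 501 to 1000 bp out in an IAA library. MEPCE caps the 7SK RNA that holds back elongation. The Tyr1P summit of its pair was 35 and 41 bp inside MEPCE in Control, and Pol II stood 77 and 211 bp inside with IAA, against 43 and 49 bp in Control.

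For Ser2P, 53 gaps (4.22%) were gained, against 4.5% over all regions, and 6 were lost (0.477%), against 0.634%. Without Control replicate 1, which leaves the shallow Control library alone, 317 gaps were gained. Without Control replicate 2 the lost count was 17, and without IAA replicate 1 or 2 it was 11 or 12. With Ser2P lists cut to equal length 83 were gained and 32 lost. Of the 53, 40 were at divergent pairs (5.69% of 703) and 2 at tandem pairs (0.858% of 233). At 44 of the 53 no Control Ser2P peak reached the window and no Control summit lay within 1000 bp. The 6 of highest Pol II rank were RPL12/LRSAM1, NDUFB1/CPSF2, OXLD1/CCDC137, MED22/RPL7A, HECTD3/UROD and SDF4/B3GALT6, and all 6 had Pol II and Tyr1P summits in all 4 libraries of each. RPL12, a ribosomal protein gene, held the Ser2P summit 123 and 84 bp inside with IAA, with 193 and 206 stacked fragments. NDUFB1/CPSF2 joins a subunit of respiratory complex I with a subunit of the pre-mRNA cleavage and polyadenylation complex. Its Ser2P summit lay 85 and 107 bp inside NDUFB1 with IAA, while Pol II lay inside CPSF2 in all 4 libraries, at 103 and 128 bp with IAA and 71 and 73 bp in Control. At HECTD3/UROD, a ubiquitin ligase and an enzyme of heme synthesis, Ser2P was 72 and 177 bp inside HECTD3 with 31 and 36 stacked fragments, while Pol II lay inside UROD in all 4 libraries.

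Ser2P summits inside the gene bodies were found at more genes of close pairs with IAA. Interior summits lay more than 1 kb inside both ends of genes of at least 2 kb. Of 2342 such genes of the 1257 gaps, 66.4% and 63.7% had an interior Ser2P summit with IAA, against 40.2% and 17.1% in Control. Genes of single promoters had 76.1% and 73.4%, against 44.3% and 14.5%. A gain, with interior summits in both IAA and neither Control library, was called at 550 of 2342 genes (23.5%), against 27.1% over all genes of pairs and single promoters. Genes of close pairs are shorter, with a median of 20.9 kb against 40.9 kb. Among genes of 10 to 50 kb the shares were 78.8% and 76.5% with IAA and 44.5% and 17.2% in Control for pairs, and 77.5% and 74.2% with IAA and 40.6% and 14.4% in Control for single promoters. There the pairs exceeded single promoters by 2.55 points (exact permutation p = 0.125, n = 4), while over all lengths they differed by -5.22 points (exact permutation p = 0.25, n = 4). Cutting the Ser2P lists to the same number of peaks gave 2.39 points over all lengths.

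Both genes of a shared promoter carried interior Ser2P at more pairs with IAA. Of 662 divergent pairs with both genes of at least 2 kb, both genes had an interior summit at 336 and 311 pairs with IAA, against 116 and 15 in Control. Neither gene had one at 75 and 79 pairs with IAA, against 218 and 461 in Control. Both genes gained at 43 of the 662 pairs, and 1 gene gained at 247, of which 156 had a Control summit in the other gene. Over all genes of pairs and single promoters, 27.1% gained. Whether the 2 genes of a pair gained together more often than separate genes would was not tested. The 43 pairs are therefore not read as joint behaviour. Among pairs where both gained were COPZ2/NFE2L1, ANKMY2/BZW2, SAFB2/SAFB (paralogous nuclear scaffold proteins) and UBE2O/AANAT (a ubiquitin-conjugating enzyme and an enzyme of melatonin synthesis). At ZBTB4/POLR2A, POLR2A gained while ZBTB4 had an interior summit in Control.

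Where 1 gene of the pair carried interior Ser2P, no relation of that gene to the side of the Pol II summit was detected. The Pol II summit was nearer to that gene at 44.7% of 235 pairs and 48.5% of 264 pairs in IAA replicates 1 and 2, against 51.5% of 328 and 45.7% of 186 in Control. All 4 exact binomial 95% intervals, which cover counting error only, held 50%. They ran from 38.2% to 51.3% and 42.3% to 54.7% with IAA, and from 46.0% to 57.1% and 38.4% to 53.1% in Control. Pairs within a library are not replicates, so a relation is not excluded. The gene with interior Ser2P was the longer of the pair at 78.5% and 79.8% with IAA, against 63.4% and 67.7% in Control.

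**Figure D4:**
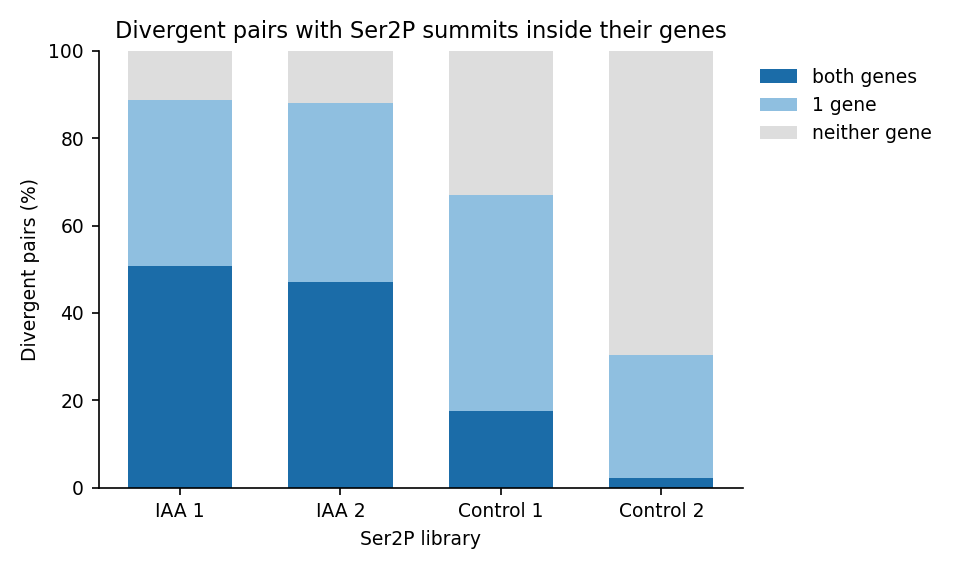
Divergent pairs (%, of 662 with both genes of at least 2 kb) with an interior Ser2P summit in both genes, 1 gene or neither, in each Ser2P library, IAA left of Control. Both genes carried one at 50.8% and 47.0% of pairs with IAA and at 17.5% and 2.27% in Control.

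Some gene groups lay beside close gaps more often than the 12.2% of all protein-coding genes. Of 69 replication-dependent histone genes, 28 did so, in 15 gaps of which 14 joined 2 histone genes. Of 111 DNA repair genes, 36 did so, and none of the 36 gaps joined a pair of them. XPO5/POLH, CCDC51/ATRIP, ORMDL1/PMS1 and SMYD4/RPA1 had the highest Pol II ranks of these, with summits of all 3 antibodies in all 12 numbered libraries. Mitochondrial ribosome genes counted 27 of 77, aminoacyl-tRNA synthetases 11 of 38, chaperonins 5 of 13 and proteasome genes 9 of 48. Zinc finger genes went the other way, with 33 of 509 (6.48%). Pol II was lost at none of the 36 DNA repair gaps and none of 29 zinc finger gaps, 2 of 27 mitochondrial ribosome gaps, 1 of 11 synthetase, 1 of 5 chaperonin, 1 of 10 proteasome and 1 of 15 histone gaps, against 5.33% of all 1257. The rule used Pol II Control summits, so nothing is read from these counts. The lists were chosen with earlier results of these data known, and the counts carry no test.

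At the limits of the rule the values ran on without a step. Of 213 gaps of 801 to 1000 bp, 83 had the Pol II Control summits (39.0%), and of 160 gaps of 1001 to 1200 bp, 70 (43.8%). Pol II summits with IAA were at 84.3% and 94.0% of the first and at 85.7% and 92.9% of the second. Around the 500 bp limit of the window, 66 gaps had a Control summit over 300 bp out (36.4% divergent), and 35 gaps missed the rule with summits just beyond 500 bp (28.6% divergent). The widest divergent gap, SMIM7/TMEM38A, had 994 bp, with 1 Pol II summit in each IAA library and 2 in each Control library, and the gaps just outside were SLC26A6/CELSR3 with 1001 bp, and DPCD/FBXW4 and NPM3/OGA with 1003 bp each. The widest of all, LSR/USF2 at 997 bp, and XPOT/TBK1 at 994 bp were tandem pairs, with Ser2P percentiles in IAA replicates 1 and 2 of 98.7 and 97.5 at LSR/USF2 and 99.8 and 99.9 at XPOT/TBK1. The narrowest gaps were NOP56/IDH3B at 1 bp and CDK10/SPATA2L at 2 bp, both convergent, and GLIS3/SLC1A1 at 2 bp, divergent. At CDK10/SPATA2L the Pol II summits of both Control libraries had no counterpart with IAA, while Ser2P was present in all 4 libraries, at percentiles of 87.9 and 81.0 with IAA and 94.5 and 94.1 in Control.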

How the data were processed

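Per the submitters' processing notes, the build was hg38 and the tools named were MACS2 2.2.7.1, Bowtie2 2.3.4.1, Trim Galore 0.6.6, deepTools 3.5.1 and Picard 2.25.7. For roles, options and the use of the inputs, the text is not given in the sources used. Each library has a deposited peak list of its own, with fold enrichment at the summit, −log10 p, −log10 q and a score, which is the whole part of 10 times the −log10 q. These deposited fold, −log10 and score values are the authors' own, belong to a peak within its list and were used only to describe or rank peaks there. The lists hold no read totals. Depth was estimated by solving the deposited fold, taken as (n + 1) over (background + 1), and −log10 p, taken as a Poisson tail, for whole fragments, within a relative tolerance of 0.0002. This gave a whole number for 99.96% to 100% of peaks in the immunoprecipitated lists. Intervals cover counting error only.

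Peaks on chromosomes 1 to 22 and X that shared at least 1 bp with an input peak were removed (0.276% to 2.31% of a list). Genes came from RefSeq on GRCh38.p14, and strand from a RefSeq promoter table for 15812 of 19974 genes. A gene's ends are the outermost annotated bases. In each window the peak with the highest −log10 q was read. Library differences were tested by two-sided exact permutation over libraries. Pairs were named by rule: the 8 of highest Pol II Control rank, the highest ranks among lost or gained pairs, the narrowest and widest gaps, and a list of well-known pairs. Some pairs that the rule names, and 1 marker gene, are not reported here. The members and gene lists were chosen with earlier results of these data known, and the measures of peak cover, number and side at divergent pairs after seeing the data. Same-numbered libraries share only a number in the labels. Alternatives were a stricter −log10 q of 5, lists of equal length, other windows, 3 classes of Control rank, orientation, left-out libraries and a replicate block. Tools were Python 3.11.15, numpy 2.4.6, pandas 2.3.3 and scipy 1.17.1. The region and call steps were tested on simulated peaks.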

Additional observations from a re-analysis of the deposited data

Results flagged for a closer look

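Ser2P and Tyr1P summit shares differed in opposite directions over the 1257 close gaps. The share of gaps with a summit differed by 13.7 points for Ser2P and by -2.03 points for Tyr1P (IAA minus Control), and the libraries of the groups did not overlap for either antibody. The difference between the antibodies was not tested.

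Ser2P percentiles differed in opposite directions by orientation. They are ranks within lists of 99001 and 88503 peaks with IAA and 37013 and 15270 in Control. A percentile depends on the other peaks of its list. Neither the difference at divergent pairs nor that at convergent pairs is read as a change at the gaps. The part of list length was not tested. The median percentile of Ser2P peaks differed by 25.7 at divergent pairs, with 93.3 and 92.4 with IAA and 77.6 and 56.7 in Control. At convergent pairs it differed by -4.63, with 90.7 and 88.4 with IAA and 95.2 and 93.2 in Control, over 18 to 20 pairs with a summit with IAA and 17 in each Control library. The difference between the orientations was not tested.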

How the results depend on the processing

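Only the Pol II differences from single promoters over 6 libraries have tests that can pass 0.05. Under settings other than a left-out library, the width difference kept its direction and call in 10 of 10 (35 to 71.8 bp), the rank difference in 8 of 10 and the share difference in 9 of 14. In the highest and middle of 3 classes of Control rank the Pol II rank difference from single promoters was 0.319 and 2.45 and the share difference 0.239 and 1.17 points. The Pol II share difference was 1.44 points with any peak sharing 1 bp (exact permutation p = 0.1875, n = 6), 0.720 with pairs re-chosen around the middle of the gap (a setting chosen after seeing the data) and -2.92 in a window around the middle. For Tyr1P the share difference was -0.118 in the highest class, -1.05 re-chosen and -4.92 around the middle, and the rank difference -0.315 in the highest class. For Ser2P the share difference was -0.296 in the highest class, -0.909 around the middle and -0.389 at re-chosen divergent pairs, and the rank difference -0.533 at divergent and -0.625 at re-chosen divergent pairs.

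The IAA minus Control change of the share at pairs minus that at single promoters reversed for Tyr1P with −log10 q of at least 5 (0.310), divergent pairs (0.835), re-chosen divergent pairs (0.526) and a 250 bp window (1.59), and for Ser2P at divergent pairs (2.03), re-chosen divergent pairs (1.22) and lists of equal length (0.271). Interior Ser2P reversed among genes of 10 to 50 kb (2.55) and with equal lists (2.39). With equal lists, Ser2P values at divergent pairs were -0.853 for 2 or more summits, -0.288 for the same minus single promoters and -1.50 bp for the distance inside minus single promoters, and 83 gaps gained and 32 lost Ser2P. In a 250 bp window 15 gaps gained Tyr1P, 14 lost Ser2P and the Pol II distance minus single promoters was -3.75 bp. The cause was not tested.

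Leaving out each library in turn gave Pol II differences of 1.21 to 2.42 points (share), 41.9 to 51.1 bp (width) and 1.55 to 2.73 (rank), with an exact permutation p of 0.0625, the smallest 5 libraries allow. Counts were 67 to 140 (Pol II lost), 21 to 33 (Tyr1P lost), 3 to 4 (Tyr1P gained), 7 to 17 (Ser2P lost) and 55 to 317 (Ser2P gained). The share change minus single promoters was -3.45 to 0.348 for Ser2P and -0.522 to 0.147 for Tyr1P, and the Ser2P summit shift minus single promoters -0.250 to 7.75 bp. With replicate numbers as a block the Ser2P share change was 13.7 points and the Tyr1P change -2.03 points (exact permutation p = 0.5, n = 2 pairs, the smallest possible). Neither fit can pass 0.05, so the block says nothing about calls. The numbers are shared by name only. Estimated depth was lowest in Pol II Control replicate 1 and Ser2P Control replicate 2 (2.95 and 3.29 fragments per kb), and its part in these values was not tested.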

Other observations

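The unnumbered Pol II libraries differed in summit place at divergent pairs, with 1 library per label and no test. The summit lay 82 bp inside the nearer gene at the median in the library labelled IAA+EGF, 88 bp in that labelled EGF, 56.5 bp in that labelled IAA and 54 bp in that labelled Control. The share of pairs with 2 or more summits was 12.1%, 12.5%, 9.39% and 8.82% in the same order. The labels of the libraries labelled IAA and EGF disagree with the names of their lists, so which of them received IAA cannot be told apart from these sources.

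Tyr1P summits lay closer to Pol II summits than Ser2P summits did at divergent pairs. The Tyr1P summit was on the other side of the gap from the Pol II summit of the same replicate number at 15.5% and 11.9% of pairs with IAA and at 12.2% and 11.1% in Control. The Ser2P summit was on the other side at 32.5% and 35.2% with IAA and at 21.4% and 26.1% in Control, and its median distance from the Pol II summit was 93 and 109 bp with IAA and 35 and 62 bp in Control. These values share the Pol II libraries and carry no test.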
